A study of Mus musculus with 31 samples.

Results

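The histone cluster genes are the protein-coding genes of the 4 histone gene clusters of the mouse, named Hist1h, Hist2h, Hist3h and Hist4h in the GENCODE M21 annotation. The members were found by matching the Ensembl identifiers of the count tables to that annotation and keeping the protein-coding genes whose symbol begins with 1 of those 4 prefixes. The rule used symbols only and no measured value. It gave 65 genes among 48881 rows, namely 6 genes for the linker histone H1, 18 for H2A, 16 for H2B, 12 for H3 and 13 for H4. Of these, 52 lie on chromosome 13, 10 on chromosome 3, 2 on chromosome 11 and 1 on chromosome 6. The Hist1h2bm and Hist1h2bh genes were not analysed here.

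The study asked how E2A and HEB, transcription factors of the E protein family encoded by Tcf3 and Tcf12, affect the formation of group 2 innate lymphoid cells (ILC2) from T cell precursors. Precursors at the DN1 and DN3 stages of thymocyte development were grown on OP9-DL1 stroma, a bone marrow stromal line that presents a Notch ligand, with stem cell factor and the interleukins IL-2 and IL-7. All mice were C57BL/6. The 24 culture libraries came from 2 precursors, 2 genotypes and days 4, 5 and 7, with 2 libraries in each of 12 groups. Every culture carried R26-CreERT2, a Cre that tamoxifen activates, and R26-stop-tdTomato, a red reporter that Cre switches on. The floxed cultures (libraries a and b) carried E2Af/fHEBf/f in addition, and the control cultures (libraries c and d) did not. Tamoxifen was added on day 4 per the design text, although the labels of the DN1 day 7 cultures place it on day 7. Cells expressing tdTomato were sorted on days 5 and 7, whereas the day 4 cultures were neither induced nor sorted in this way. A further 7 libraries were of ILC2 taken directly from mice. Thymic ILC2 (libraries 1 and 3) and lung ILC2 dKO (libraries 1 and 3) came from mice carrying plck-Cre; E2Af/fHEBf/f, in which a Cre under the proximal Lck promoter acts in T-lineage cells. The remaining 3 lung libraries, of an Id1 transgene, were titled Id1, after an inhibitor of E proteins. The genotype label of 2 of them names Id2 or Id3 in its place, and the group follows the titles. The labels do not say whether the replicates came from separate animals or cultures, so the p-values measure only the spread between these libraries.

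Histones H2A, H2B, H3 and H4 form the protein core around which DNA is wound, and H1 binds the linker DNA between cores. Most cluster genes are transcribed in S phase, when DNA is copied, and their mRNAs end in a stem-loop bound by SLBP instead of a poly(A) tail. Some members, among them Hist1h1c, Hist1h2bc and Hist2h2be, are known to give polyadenylated mRNA as well, so the measured level of a member depends on whether a library was made by poly(A) selection or by depletion of ribosomal RNA. The labels give total RNA and the standard protocols of the sequencer's maker, without naming either method.

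The stem-loop is shown first, because the members' levels in the ILC2 libraries are later compared by where their annotated transcripts end. It was searched in the whole annotated M21 transcripts, as a 16-base hairpin, and each match kept lay after the stop codon. A match was found in 40 of the 65 members, with 5 different cores. The core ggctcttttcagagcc occurred in 24 members, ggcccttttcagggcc in 7 members, all of class H4, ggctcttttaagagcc in 6, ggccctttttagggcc in Hist1h4i and Hist2h4, and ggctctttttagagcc in Hist2h2ac alone. The sequences below run 5′ to 3′ on the strand of the gene, in GRCm38, and capitals mark the stem-loop.
Hist1h2ao: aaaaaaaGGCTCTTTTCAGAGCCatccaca
Hist1h2ap: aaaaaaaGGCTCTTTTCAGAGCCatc
Hist1h1c: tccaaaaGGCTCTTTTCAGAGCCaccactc
Hist3h2ba: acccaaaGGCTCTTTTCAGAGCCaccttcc
Hist1h3c: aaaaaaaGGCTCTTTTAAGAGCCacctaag
Hist1h4i: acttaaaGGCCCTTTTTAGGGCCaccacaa
Hist1h4d: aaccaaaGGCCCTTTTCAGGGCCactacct
Hist4h4: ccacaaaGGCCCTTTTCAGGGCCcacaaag
They lie in the last exon at chr13:21810891-21810920 (+) for Hist1h2ao, chr13:21833026-21833051 (-) for Hist1h2ap, chr13:23739505-23739534 (+) for Hist1h1c and chr11:58949342-58949371 (+) for Hist3h2ba. Those of the other 4 lie at chr13:23745040-23745069 (-) for Hist1h3c, chr13:22040959-22040988 (-) for Hist1h4i, chr13:23581943-23581972 (+) for Hist1h4d and chr6:136803991-136804020 (-) for Hist4h4. The annotated transcript runs only 3 bases past the stem-loop in Hist1h2ap and 31 in Hist1h2ao, but 840 in Hist1h1c, 770 in Hist1h4d and 2445 in Hist4h4. In 24 members the annotated transcript ended within 200 bases of the stem-loop, and in 16 it ran further. The other 25, Hist1h2bc, Hist2h2be, Hist1h3h and Hist1h1b among them, had no match in the annotated transcript, which says only that these letters were not found there. A missing match can also reflect where the annotation stops, and the annotated Hist1h3h transcript has only 411 bases.

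Promoters were taken from RefSeq (GRCm38.p6), from 250 bases before to 50 after the start, and 59 members had an entry. Short motifs were counted on both strands. CCAAT, the word bound by NF-Y, was present in 50 of 59 members (84.7%) and in 37.4% of all 32851 promoters of that table. It was found in all 5 H1, 18 H2A, 14 H2B and 10 H3 promoters and in 3 of 12 H4 promoters. The TATA word TATAAA was present in 57.6% of the members and 13.6% of all promoters. The octamer ATTTGCAT, a word of OCT factors, occurred in 20.3% against 1.74%, in 7 H2A and 5 H2B promoters. The E-box CANNTG, the word that E proteins bind, was found in 71.2% of the members and in 72.3% of all promoters. The promoters below are of an H2A, an H3 and an H4 gene whose values are given by library, and capitals mark the CCAAT, TATA and E-box words on either strand.
Hist1h2ap: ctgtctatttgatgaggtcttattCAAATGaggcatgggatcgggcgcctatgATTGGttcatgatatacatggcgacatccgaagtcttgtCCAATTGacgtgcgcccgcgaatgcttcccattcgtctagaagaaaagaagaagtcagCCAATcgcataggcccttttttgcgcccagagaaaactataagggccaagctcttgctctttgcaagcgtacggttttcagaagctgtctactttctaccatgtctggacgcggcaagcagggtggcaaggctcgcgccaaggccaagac
Hist1h3h: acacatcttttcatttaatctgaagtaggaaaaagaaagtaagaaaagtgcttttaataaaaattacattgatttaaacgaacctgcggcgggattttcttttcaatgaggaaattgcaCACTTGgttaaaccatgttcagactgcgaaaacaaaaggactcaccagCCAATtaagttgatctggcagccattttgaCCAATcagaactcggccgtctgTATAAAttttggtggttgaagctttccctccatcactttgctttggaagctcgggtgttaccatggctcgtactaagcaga
Hist1h4i: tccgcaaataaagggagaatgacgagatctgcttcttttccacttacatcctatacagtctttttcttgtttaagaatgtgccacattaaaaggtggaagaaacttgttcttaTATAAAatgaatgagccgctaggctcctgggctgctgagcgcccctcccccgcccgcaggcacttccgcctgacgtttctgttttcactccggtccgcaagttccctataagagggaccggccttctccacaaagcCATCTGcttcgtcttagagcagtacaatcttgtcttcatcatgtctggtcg
They are chr13:21833426-21833725 (-), chr13:21717378-21717677 (+) and chr13:22041313-22041612 (-), listed by RefSeq as H2ac24, H3c10 and H4c9. In Hist1h2ap a CCAAT and an E-box overlap in the run CCAATTG. In Hist1h4i no CCAAT was found in this window, and its E-box lies across the annotated start. These are matches of letters, and binding was not measured.

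Culture libraries held 5908459 to 10692186 counts and ILC2 libraries 3695522 to 13065445. Values are CPM (counts scaled to the library size) after TMM normalization, and per kilobase of exon where levels of different genes are compared. Tcf3, a target of the deletion, was at 15.0 to 77.2 CPM in the 8 floxed cultures of days 5 and 7 and at 79.7 to 114 in the 8 controls. Tcf12 was at 94.8 to 325 against 210 to 509 CPM, and the whole-gene counts include exons that Cre leaves in place. In the lung, Id1 was at 23.6 to 102 CPM in the Id1 libraries and at 0 to 0.335 CPM in the dKO libraries. Xist, expressed from the inactive X chromosome of female cells, was at 582 to 1937 CPM in all floxed and at 4.49 to 68.4 in all control cultures, so sex and genotype cannot be told apart. The 8 OP9 stroma markers summed to 1106 to 5963 CPM on day 4 and to 13.1 to 98.8 on days 5 and 7. DN1 floxed day 7 library b stood apart, with 7111 CPM of 5 skeletal muscle genes against at most 415 in the other 23 cultures. Cultures held 339 to 2062 CPM of 6 T cell and thymocyte markers. The 6 ILC2 markers summed to 851 to 4203 CPM in the ILC2 libraries and to 98.6 to 1482 CPM in the cultures.

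Most of the summed histone cluster CPM in the cultures was counted to H2A genes. The 65 genes summed to a mean of 2740 CPM over the 24 cultures, of which H2A genes made up 87.8%, H1 6.61%, H4 2.36%, H2B 2.08% and H3 1.15%. Hist1h2ao and Hist1h2ap alone held 46.5%. Per kilobase of exon, the median member of each class had a mean of 86.5 CPM in H2A, 19.2 in H1, 5.32 in H4, 3.44 in H3 and 2.60 in H2B. Hist1h2ap was highest at 1347 CPM per kilobase, and the leading genes of the other classes were Hist1h1e at 46.3, Hist1h4i at 35.6, Hist3h2ba at 20.7 and Hist1h3c at 11.8. The sum was 1264 CPM in the lowest culture, DN1 floxed day 4 library b, and 5980 CPM in the highest, DN3 control day 5 library c.

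How far single members can be told apart differs by class. The median share of a member's 50-base words that also occur in another annotated gene was 73.0% in H2A, 62.0% in H3, 51.7% in H2B, 39.5% in H4 and 1.13% in H1. Hist1h2ao shared 93.5% of its words and Hist1h2ap 93.1%, and how reads that match several genes were counted is not given in the sources used here. The counts of Hist1h2ab, Hist1h2ad and Hist1h2ai differed across libraries by a median of 5.17%, and those of Hist1h2ao and Hist1h2ap by 8.92%. Values of single H2A genes are therefore uncertain, and the class is described as a group. If a read that matches several genes was counted for each of them, the H2A sum would be too high as well. The share of H2A in the histone sum and the totals led by H2A carry the same uncertainty, which was not tested. In all, 60 of the 65 members passed the filter on low counts in the cultures. The 5 that did not were Hist2h2aa1 and Hist2h3c1, with 0 counts in every culture, the testis linker gene Hist1h1t with 2 counts over the 24 cultures, Hist1h2aa with 93 and Hist2h4 with 95. Only 9 members had under 10% of their words in another gene, among them Hist1h1a, Hist1h1b, Hist1h1c, Hist2h2be and Hist4h4. Another gene overlaps 24 members, on the same strand in 7, and Hist1h1e and Hist1h2be overlap each other.

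**Figure D1:**
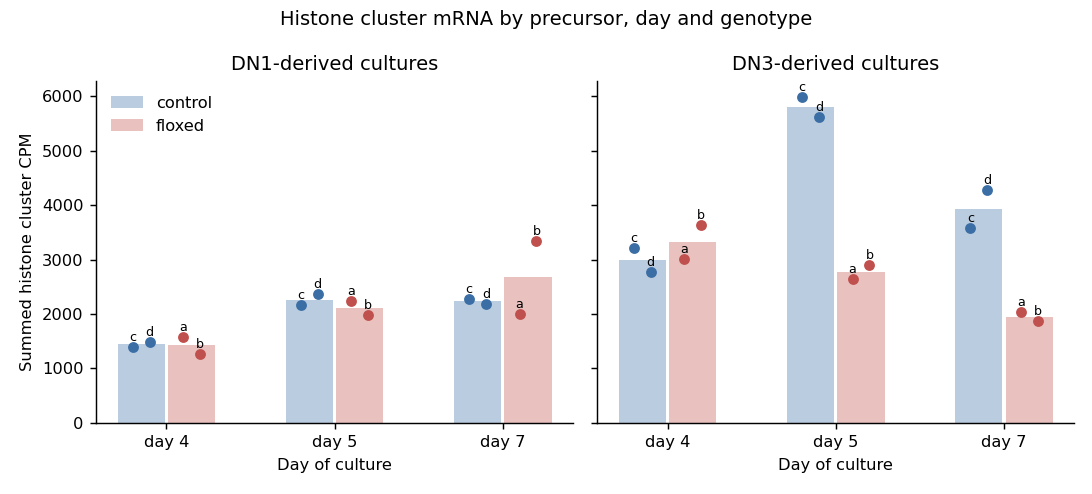
Summed histone cluster CPM (vertical axis) by day of culture for DN1-derived (left) and DN3-derived (right) cultures; points are libraries and bars group means, controls in blue and floxed in red. The DN3 controls rise to 5980 and 5617 CPM on day 5 and the DN3 floxed cultures do not.

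In DN3-derived cultures, histone cluster mRNA was lower in the floxed cells on days 5 and 7, and the H2A genes carried most of the difference. On day 5 the 65 genes summed to 2635 and 2897 CPM in the floxed libraries a and b and to 5980 and 5617 CPM in the controls c and d, a ratio of means of 0.48. On day 7 the sums were 2027 and 1866 CPM against 3587 and 4285 CPM, a ratio of 0.49. Every floxed library lay below every control on both days. On day 4, before induction, the floxed libraries held 3004 and 3630 CPM and the controls 3204 and 2766 CPM, so the groups overlapped. The 16 listed RNAs without a poly(A) tail were lower as well, at 110 and 149 CPM in floxed against 168 and 187 CPM in control libraries on day 5 and at 235 and 230 against 266 and 310 CPM on day 7. Their ratios were 0.73 and 0.81, and of them Rn7sk was at 24.4 and 23.1 against 132 and 149 CPM on day 7 while Rn7s1 was higher in floxed libraries, at 85.3 and 86.9 against 41.7 and 50.6 CPM. Their part in the histone values was not tested. In bulk libraries, fewer cells in S phase and less histone mRNA per cell cannot be told apart.

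Of the 60 members that passed the filter on low counts, 19 were lower and 0 higher on day 5 by edgeR's quasi-likelihood test with Benjamini-Hochberg adjustment over all genes. Among all 15172 genes tested, 9.76% were called, 5.2% lower and 4.56% higher. The median log2 difference was -0.93 over the 60 members and 0.00 over all genes. By class, the calls were 3 of 5 H1, 14 of 16 H2A, 2 of 16 H2B, 0 of 11 H3 and 0 of 12 H4 genes. The 12 Hist1h2a genes that were tested were all among them. Class medians ranged from -0.69 in H2B to -1.10 in H2A, and those of H3 and H4 were -0.86 and -0.83, so the uncalled classes were also lower in level. In the sums, the H3 genes stood at 27.2 and 38.0 CPM in floxed against 54.0 and 54.6 CPM in control libraries, without overlap. Leaving out floxed library a reduced the calls to 10, and leaving out control library c reduced them to 12.

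On day 7, 21 members were lower and 0 higher, against 12% of all genes called lower and 24.9% called in either direction. The median log2 difference was -0.68 over the 60 members and -0.01 over all genes. All 5 H1 genes tested and 13 of 16 H2A genes were called, with medians of -1.10 and -1.06. Of the 16 H2B genes, 3 were called. No H3 or H4 gene was called. The H3 median was 0.18, with 8 of 11 genes above 0, while the H4 median was -0.65. The H3 genes summed to 50.5 and 50.3 CPM in floxed and 39.1 and 43.6 CPM in control libraries, higher in both floxed libraries, while the H2A genes summed to 1698 and 1549 against 3134 and 3733 CPM. The days 5 and 7 comparisons, which share no library, called 15 members in common, 78.9% of the 19 and 71.4% of the 21. All Hist1h2a genes called on day 5 were among them, and most of these share much of their sequence, so they are not separate results. The matching overlap over all genes is not given here. Called on day 5 only were Hist1h2bp, Hist1h2bq, Hist2h2aa2 and Hist2h2ac, and on day 7 only Hist1h1d, Hist1h1e, Hist1h2bc, Hist2h2be, Hist3h2a and Hist3h2ba.

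**Figure D2:**
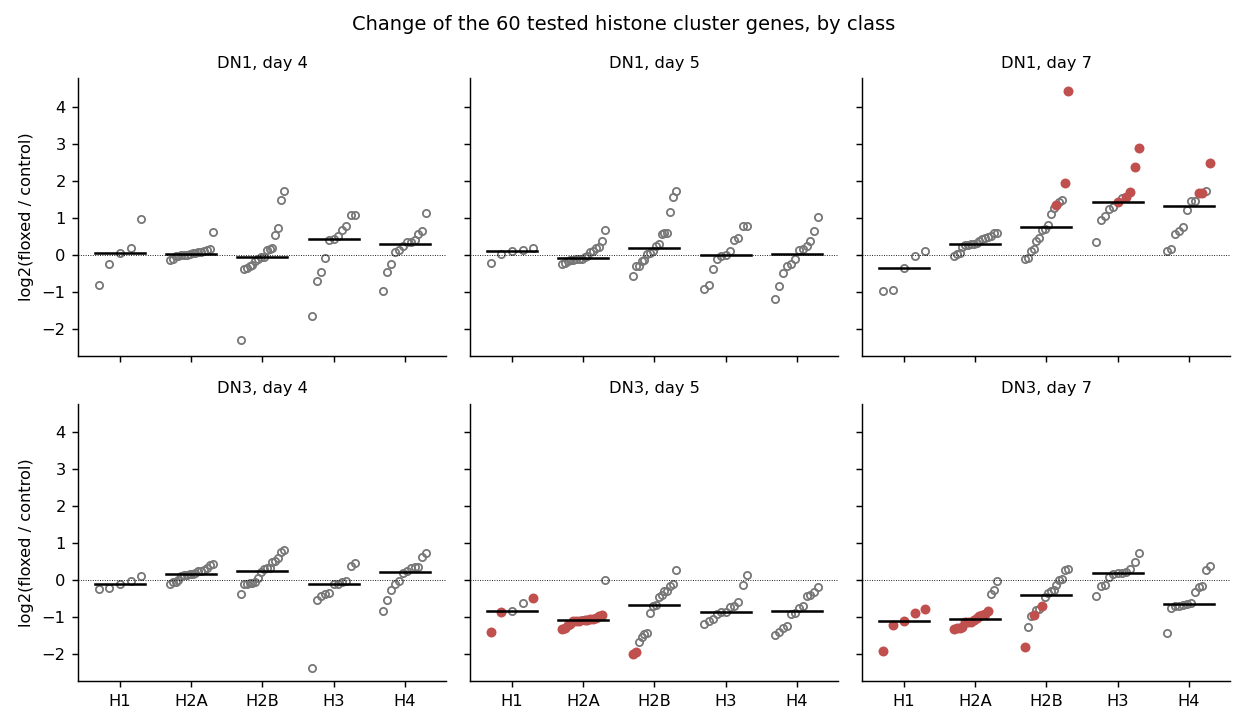
log2(floxed / control) of each of the 60 tested histone cluster genes (points) by class, in 6 panels for DN1 (top) and DN3 (bottom) on days 4, 5 and 7; genes called at an adjusted p under 0.05 are filled and a bar marks each class median. On DN3 day 7 the H1 and H2A medians are -1.10 and -1.06 while H3 is at 0.18, and on DN1 day 7 the H3 median is 1.42.

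Among the linker histones, Hist1h1a (chr13:23763666-23764406) had the most negative called difference in DN3 cultures of any member at 5 CPM or more. It stood at 4.35 and 4.49 CPM in floxed and 10.4 and 13.3 CPM in control libraries on day 5, and at 2.44 and 3.23 against 9.35 and 12.3 CPM on day 7. Both floxed libraries were below both controls on either day, and the log2 differences were -1.42 ± 0.34 (SE, adjusted p = 0.011) and -1.92 ± 0.37 (SE, adjusted p = 0.00063, edgeR). Hist1h1c (chr13:23738808-23740367), a member that also gives polyadenylated mRNA, was at 34.0 and 44.6 against 53.9 and 57.5 CPM on day 5 and at 37.2 and 37.5 against 63.5 and 75.0 CPM on day 7. Its groups did not overlap, with log2 differences of -0.50 ± 0.14 (SE, adjusted p = 0.03) and -0.89 ± 0.14 (SE, adjusted p = 0.00012). Hist1h1e (chr13:23620629-23622558), the linker gene with the highest level, was at 63.9 and 104 against 139 and 119 CPM on day 5, which did not pass the test (log2 difference -0.62 ± 0.20, SE, adjusted p = 0.057). On day 7 it was called, at 85.1 and 85.3 against 125 and 170 CPM (-0.79 ± 0.20, SE, adjusted p = 0.0063). Leaving out floxed library a or b or control d ended the day 5 call of Hist1h1a (adjusted p = 0.061 to 0.099). Leaving out floxed library a or control c or d ended that of Hist1h1c (0.093 to 0.26), as did scaling by library totals (0.058) and no filter on low counts (0.073). The day 7 call of Hist1h1e was lost without control d (adjusted p = 0.13). Hist1h1b followed the same order, with 28.9 and 39.6 against 62.2 and 63.3 CPM on day 5 and 20.4 and 18.4 against 39.2 and 43.7 CPM on day 7.

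Of the core histones, Hist1h2ap (chr13:21833026-21833507), an H2A gene, was at 724 and 611 CPM in floxed and 1426 and 1462 CPM in control DN3 libraries on day 5. On day 7 it was at 477 and 438 against 757 and 994 CPM. No floxed library reached a control, and the log2 differences were -1.11 ± 0.17 (SE, adjusted p = 0.00035) and -0.94 ± 0.17 (SE, adjusted p = 0.00048) by edgeR. Hist1h2ao (chr13:21810465-21810944), its near-copy, was at 593 and 670 against 1464 and 1423 CPM on day 5 and at 407 and 400 against 796 and 992 CPM on day 7. These values did not overlap either, with -1.19 ± 0.18 (SE, adjusted p = 0.00025) and -1.15 ± 0.18 (SE, adjusted p = 9.3e-05). Hist2h2ac, an H2A gene of the chromosome 3 cluster, was lower on day 5 only, at 13.4 and 16.9 against 40.0 and 35.0 CPM (-1.31 ± 0.25, SE, adjusted p = 0.002), while on day 7 the floxed libraries at 17.2 and 13.5 CPM overlapped the controls at 16.2 and 23.5 CPM.

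The H2B gene Hist3h2ba (chr11:58948920-58949533) differed on day 7 and not on day 5. On day 5 it was at 23 and 24 CPM in floxed and 21.5 and 29.7 CPM in control libraries, which overlapped. On day 7 it was at 9.40 and 6.75 against 22.5 and 33.7 CPM, a log2 difference of -1.82 ± 0.29 (SE, adjusted p = 0.00011). The change between the days was itself tested, and Hist3h2ba was the only member called, at -1.69 ± 0.39 (SE, adjusted p = 0.013, edgeR), against 7.2% of all genes called in either direction and 3.54% called lower. Leaving out control day 5 library c, floxed day 7 library b or control day 7 library d reduced that call to 0 members. Hist2h2be (chr3:96221119-96223738), a second H2B gene, was at 11.4 and 14.9 against 12.7 and 16.8 CPM on day 5 and at 9.05 and 9.70 against 16.6 and 19.9 CPM on day 7 (-0.96 ± 0.25, SE, adjusted p = 0.0075). Its groups overlapped on day 5 and were apart on day 7, and its call was lost without floxed library a (adjusted p = 0.055) or control d (0.088).

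Members of H3 and H4 showed smaller differences relative to their spread. Hist1h3c (chr13:23744973-23745602), the H3 gene with the highest level, was at 6.65 and 10.3 against 12.8 and 12.9 CPM on day 5 and at 13.6 and 14.6 against 8.79 and 8.26 CPM on day 7, so the floxed libraries were the lower pair on day 5 and the higher pair on day 7. Neither difference passed the test (log2 -0.60 ± 0.34, adjusted p = 0.30, and 0.73 ± 0.34, adjusted p = 0.13, SE, edgeR). Hist1h3a was at 4.84 and 7.41 against 9.47 and 12.8 CPM on day 5 and at 7.83 and 8.72 against 6.84 and 7.95 CPM on day 7, apart on day 5 and overlapping on day 7. Among H4 genes, Hist1h4i (chr13:22040636-22041362) was at 32.7 and 25.7 against 40.3 and 37.6 CPM on day 5 and at 19.5 and 22.5 against 24.8 and 27.6 CPM on day 7. Hist1h4d (chr13:23581598-23582735) was at 10.2 and 21.3 against 26.1 and 26.8 CPM and then at 14.8 and 15.5 against 16.6 and 18.0 CPM. Floxed libraries of these 2 H4 genes lay below the controls on both days without passing the test. Hist4h4 (chr6:136801553-136804415), the lone member on chromosome 6, was at 0.967 and 0.729 against 2.53 and 2.32 CPM on day 5 and at 1.91 and 0.422 against 3.35 and 2.75 CPM on day 7, below the controls in all 4 floxed libraries and not called.

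Replication genes were also lower in the DN3 floxed cultures. The list held 47 genes of origin licensing, the replication fork and nucleotide supply. On day 5, 39 of 47 were lower and 0 higher, with a median log2 difference of -0.59, and on day 7, 31 were lower and 0 higher, with a median of -0.59. Their summed CPM stood at ratios of 0.67 and 0.69, against 0.46 and 0.47 for H2A and 0.62 and 0.53 for H1. Lig1, the ligase that joins Okazaki fragments, was at 399 and 387 CPM in floxed and 733 and 829 CPM in control libraries on day 7, a log2 difference of -0.99 (adjusted p = 1.8e-06, edgeR). Pcna, the sliding clamp, was lower on day 5 (-0.61, adjusted p = 0.0063) and not called on day 7 (-0.27, adjusted p = 0.17). Of 17 mitosis genes, 9 were lower on day 5 and 16 on day 7, with 0 higher. Of 14 genes of histone mRNA processing, 2 were lower on day 5 and 2 lower and 1 higher on day 7. Slbp, which binds the stem-loop, was at 200 and 195 against 269 and 273 CPM on day 5 (-0.46, adjusted p = 0.0014) and at 160 and 143 against 199 and 188 CPM on day 7 (-0.36, adjusted p = 0.0035), with no overlap. Of 11 listed histone genes outside the clusters, 0 were called on day 5, and on day 7 5 were lower, H2afz at -0.70 (adjusted p = 5.5e-05, edgeR) among them.

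In DN1-derived cultures no histone cluster gene was called lower in the floxed cells with all libraries in the fit. On day 7 the histone sums of floxed libraries a and b lay on either side of the controls. On days 4 and 5, 0 of 60 members were called by edgeR, where 2 members on either day had an unadjusted p under 0.05 and DESeq2 also called 0. Of all genes, 0.105% were called on day 4 (0.0593% higher, 0.0461% lower) and 5.02% on day 5 (2.56% higher, 2.46% lower). The DN3 day 4 comparison likewise called 0 members, with 1 at an unadjusted p under 0.05, 0 by DESeq2 and 0.442% of all genes called. Sums on day 4 were 1579 and 1264 CPM in floxed and 1396 and 1488 CPM in control DN1 libraries. On day 5 they were 2240 and 1973 against 2159 and 2361 CPM. Both pairs overlapped.

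On day 7 the DN1 floxed libraries differed from each other as well as from the controls. The histone sum was 2006 CPM in floxed library a and 3346 in floxed library b, with the controls at 2279 and 2180 CPM in between. Of the 60 members, 11 were higher and 0 lower, against 12.2% of all genes called higher and 22.5% in either direction, and the median log2 difference was 0.59 against -0.00 over all genes. In either direction, the share of members called was below that of all genes. The called members were 5 of 11 H3, 3 of 12 H4 and 3 of 16 H2B genes, with 0 of 16 H2A and 0 of 5 H1 genes. The H3 sum was 37.7 and 78.7 CPM in floxed libraries a and b and 20.7 and 16.1 in controls c and d, and the H2B sum was 71.4 and 69.1 against 42.7 and 48.9 CPM. The H4 sum was 58.3 and 102 against 43.7 and 55.3 CPM. In these 3 classes each floxed library exceeded each control. The H2A sum was 1675 and 2944 against 2018 and 1875 CPM, so that library a was the lowest of the 4 and library b the highest.

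**Figure D3:**
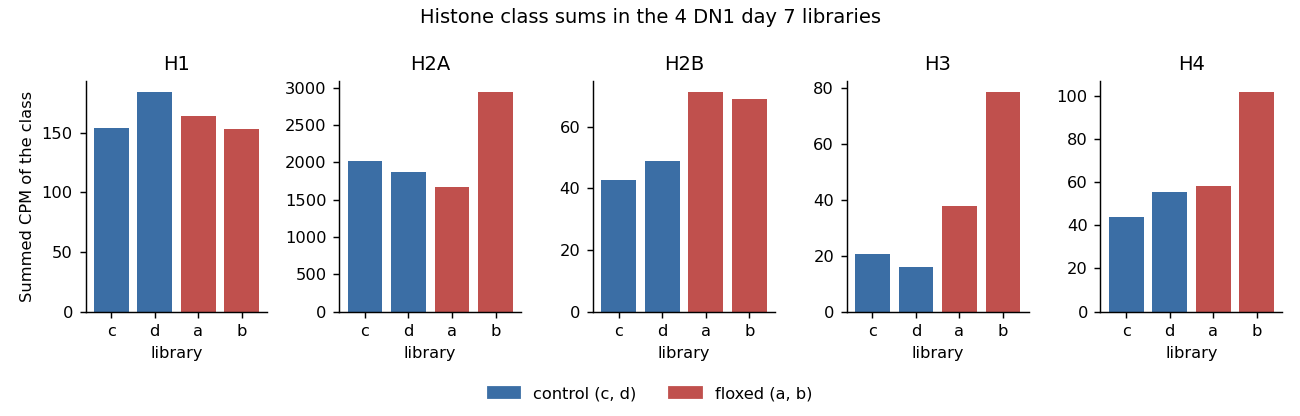
Summed CPM of each histone class (panels) in the 4 DN1 day 7 libraries, controls c and d in blue and floxed a and b in red; bars start at 0 and each panel has its own scale. Floxed libraries exceed both controls in H2B, H3 and H4, and library b alone stands out in H2A.

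Hist1h3c had the largest called difference at 5 CPM or more. It was at 9.13 and 22.3 CPM in the floxed and 2.49 and 1.71 CPM in the control libraries, a log2 difference of 2.89 ± 0.39 (SE, adjusted p = 2.9e-05, edgeR). Both floxed libraries were above both controls, and library b was the higher of them. Hist1h3h (chr13:21717659-21718069) was at 5.14 and 10.1 against 1.54 and 1.34 CPM (2.38 ± 0.42, SE, adjusted p = 0.00047). Hist1h3a was at 5.27 and 10.8 against 2.72 and 2.69 CPM (1.56 ± 0.40, SE, adjusted p = 0.0088). Both followed the order of Hist1h3c, with library b highest. In H2B, Hist1h2be (chr13:23583670-23621124), which overlaps Hist1h1e, was at 3.86 and 4.70 against 1.54 and 1.83 CPM (1.34 ± 0.40, SE, adjusted p = 0.021). The remaining called members were Hist1h2ba, Hist1h4b, Hist1h2bj, Hist1h3d, Hist1h4k, Hist1h4c and Hist1h3b, with log2 differences of 1.42 to 4.43. By contrast, the H1 gene Hist1h1e was at 84.1 and 85.9 against 78.0 and 94.5 CPM and Hist1h1c at 47.3 and 49.8 against 44.3 and 45.8 CPM, neither of which was called.

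The number of calls depended on single libraries. Without floxed library b 4 members were called, with a median of 0.08, and without floxed library a 35 were called, 33 higher and 2 lower, with a median of 0.92. Leaving out control c or d gave 6 and 4. In b, 50 of 60 members were above both controls, and in a 30 were, of which 13 of 16 H2B and 9 of 11 H3 genes but 1 of 16 H2A and 1 of 5 H1 genes. The share of all tested genes above both controls is not given here, so these counts only describe the members. Without b, Hist1h3c (2.11, adjusted p = 0.00043) and Hist1h3h (1.82, adjusted p = 0.011) were still called by edgeR, whereas Hist1h3a (0.96, adjusted p = 0.19) and Hist1h2be (1.19, adjusted p = 0.11) were not. Leaving out either control also ended the calls of Hist1h3a (adjusted p = 0.061 and 0.063) and Hist1h2be (0.14 and 0.081), and Hist1h2be was not called with no filter on low counts (0.067) or by DESeq2 (0.08). Beside its muscle transcripts, library b held more RNAs that carry no poly(A) tail. The same list of 16 RNAs summed to 515 CPM in b and to 125 to 151 CPM in the other 3 libraries. Rn7s1, the RNA of the signal recognition particle, was at 217 CPM in b, 40.3 in a and 32.8 and 44.0 in the controls. The part of either in the histone values was not tested. Replication genes gave 3 higher and 6 lower calls of 47 in this comparison, and their summed CPM was 6130 and 6072 against 6393 and 6568 CPM, slightly below the controls in both floxed libraries. Of 17 mitosis genes, 7 were lower and 0 higher.

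The genotype difference on day 7 was set against that of the other precursor. The DN1 difference minus the DN3 difference was above 0 in all 60 members, with a median of 1.25, and 22 members were called, all higher, against 3.81% of all genes called higher, 3.98% lower and 7.79% in either direction. They comprised 12 H2A, 4 H2B, 3 H4, 2 H3 and 1 H1 genes. Hist3h2ba gave 2.51 ± 0.41 (SE, adjusted p = 0.00088, edgeR), from 15.0 and 12.2 CPM in DN1 floxed and 8.17 and 8.68 in DN1 control libraries, against the DN3 values given above. It was therefore high in the DN1 floxed and low in the DN3 floxed libraries relative to their own controls, but only the DN3 difference was called by itself. Hist1h1c gave 1.0 ± 0.20 (SE, adjusted p = 0.0048) and was still called without DN1 floxed library b (0.97, adjusted p = 0.01). The number of calls was 14 without that library and ranged from 10 to 27 over the 8 libraries left out in turn. It was 12 without DN1 control c or d and 10 without DN3 floxed b or DN3 control d. The replication list gave 18 higher and 0 lower calls of 47 for the same contrast. Within DN1, the day 7 difference minus the day 5 difference called 1 member, Hist1h3c, at 2.48 ± 0.56 (SE, adjusted p = 0.031), against 0.87% of all genes called higher and 1.63% in either direction. Without library b this was 1.70 (adjusted p = 0.12), and with 1 of the 8 libraries left out Hist1h3c was called only without control day 5 library c or floxed day 7 library a. The number of members called in that contrast was 0 to 2 when any library other than floxed day 7 library a was left out, and 18 without library a.

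DN1 controls held less histone mRNA than DN3 controls on day 7. The sums of 2279 and 2180 CPM lay below 3587 and 4285 CPM, a ratio of 0.57. The replication gene sums stood at a ratio of 0.98 and the mitosis gene sums at 0.67. The RNAs without a poly(A) tail were lower too, at 125 and 151 CPM in DN1 against 266 and 310 CPM in DN3, a ratio of 0.48. Among them Rn7sk, which binds a transcription elongation factor, was at 17.4 and 21.8 against 132 and 149 CPM, and the part of this in the histone values was not tested. All 60 members were below 0 in log2 difference, with a median of -0.92, and 25 were called lower and 0 higher, against 11.2% of all genes called lower and 22.6% in either direction. Hist1h3c was at 2.49 and 1.71 against 8.79 and 8.26 CPM (-2.01 ± 0.40, SE, adjusted p = 0.001, edgeR), and Hist3h2ba at 8.17 and 8.68 against 22.5 and 33.7 CPM (-1.74 ± 0.28, SE, adjusted p = 0.00013). The groups were apart in both. Leaving out DN3 control d gave 10 calls, DN1 control c 14 and DN1 control d 16. This comparison and the genotype comparisons of day 7 share these controls. Of the 47 replication genes, 3 were higher and 7 lower.

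Across days, histone mRNA rose between days 4 and 5 in DN1 cultures and in DN3 controls. The total is mostly H2A. In DN1 controls the day 5 to day 4 ratio was 1.67 for H2A and 1.70 for H4 but 1.0 for H1, 0.57 for H2B and 0.67 for the members with under 10% of words shared, and in DN1 floxed cultures it was 1.55 for H2A, 0.84 for H2B and 0.83 for that set. The RNAs without a poly(A) tail stood at 0.59 in DN1 controls, 0.75 in DN1 floxed, 1.0 in DN3 controls and 0.78 in DN3 floxed cultures. The day 4 cultures were unsorted and held the stroma transcripts given above, whose part in these changes was not tested. In DN1 controls the sum was 1396 and 1488 CPM on day 4 and 2159 and 2361 CPM on day 5, a ratio of 1.57, and 17 members rose and 4 fell, against 18.5% of all genes called higher, 22% lower and 40.5% in either direction. In DN1 floxed cultures the ratio was 1.48, and 12 rose and 3 fell, against 11.9% higher, 19.1% lower and 31% in either direction. In both DN1 groups the share of members called in either direction was below that of all genes. In DN3 controls the sum was 3204 and 2766 CPM on day 4 against 5980 and 5617 CPM on day 5, a ratio of 1.94, and 21 rose and 0 fell, against 4.59% of all genes called higher, 9.57% lower and 14.2% in either direction. DN3 floxed cultures showed no such rise, with 3004 and 3630 CPM on day 4 and 2635 and 2897 CPM on day 5, and 1 member rose and 1 fell against 7.49% of all genes called higher, 12.8% lower and 20.3% in either direction. With a replicate block 1 member was called there, a fall. Of the 47 replication genes, 43 were higher in DN1 controls, 35 in DN1 floxed and 14 in DN3 controls, while 11 were lower in DN3 floxed cultures. Without control day 4 library c the DN1 control count was 8, without control day 5 library d 9 and without control day 4 library d 13. Without floxed day 4 library b the DN1 floxed count was 6, and without either day 5 library 9. Without 1 of the 4 libraries the DN3 control count was 7 (day 4 library d or day 5 library c), 12 (day 4 library c) or 13 (day 5 library d).

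Single members moved in both directions over these days. Hist1h2bc (chr13:23684199-23692908), an H2B gene without a stem-loop match and with polyadenylated mRNA, fell in DN1 controls from 34.5 and 28.6 CPM to 4.30 and 4.58 (-2.82 ± 0.23, SE, adjusted p = 6.4e-09, edgeR). It also fell in DN1 floxed cultures, from 23.2 and 25.2 to 5.55 and 5.02 CPM (-2.19 ± 0.22, SE, adjusted p = 2.4e-07), and in DN3 floxed cultures, from 8.29 and 9.01 to 3.02 and 4.01 CPM (-1.30 ± 0.24, SE, adjusted p = 0.00052). Each day 5 library lay below each day 4 library of its group. Hist1h1c fell in DN1 controls from 61.3 and 75.9 to 23.5 and 25.3 CPM (-1.49 ± 0.15, SE, adjusted p = 1.3e-07), again without overlap. In the other direction, the H4 gene Hist1h4i rose in DN1 controls from 14.2 and 17.1 to 30.4 and 33.4 CPM (1.03 ± 0.17, SE, adjusted p = 6.7e-05), and the H2A gene Hist1h2an rose in DN1 floxed cultures from 7.53 and 4.26 to 12 and 12.2 CPM (0.99 ± 0.27, SE, adjusted p = 0.0092). In DN3 controls the H4 gene Hist1h4m rose from 1.06 and 2.06 to 5.6 and 6.13 CPM (1.86 ± 0.51, SE, adjusted p = 0.017) and Hist1h2ao from 687 and 618 to 1464 and 1423 CPM (1.15 ± 0.18, SE, adjusted p = 0.00013). In each of these 4 genes the day 5 libraries were all above those of day 4. The call of Hist1h2an was lost without floxed day 4 library b (0.69, adjusted p = 0.12), and that of Hist1h4m without control day 4 library c or either day 5 control (adjusted p = 0.069 to 0.17).

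From day 5 to day 7 the histone sum fell in both DN3 groups. In DN3 controls the sum had a ratio of 0.68, and 8 members fell and 1 rose, against 9.73% of all genes called lower, 10.5% higher and 20.3% in either direction. Hist2h2ac fell from 40.0 and 35.0 to 16.2 and 23.5 CPM (-0.91 ± 0.24, SE, adjusted p = 0.012, edgeR), and Hist1h2bc rose from 5.47 and 6.13 to 10.3 and 9.38 CPM (0.76 ± 0.23, SE, adjusted p = 0.022). Both pairs of days were apart. The call of Hist2h2ac was lost without day 5 or day 7 library c (adjusted p = 0.071 and 0.16), and that of Hist1h2bc without any 1 of the 4 libraries (0.061 to 0.16), with no filter on low counts (0.079) or by DESeq2 (0.057). In DN3 floxed cultures the ratio was 0.70, and 9 fell and 3 rose, against 10.9%, 13.6% and 24.5%. In both DN3 groups the share of members called in either direction was below that of all genes. By class, the DN3 floxed ratio was 0.67 for H2A, 0.84 for H2B, 0.89 for H1, 0.97 for H4 and 1.55 for H3. The median log2 difference of the members in that group was 0.04. Hist3h2ba fell there from 23 and 24 to 9.40 and 6.75 CPM (-1.55 ± 0.29, SE, adjusted p = 0.0005), whereas Hist1h3h rose from 2.06 and 3.04 to 5.74 and 6.89 CPM (1.31 ± 0.40, SE, adjusted p = 0.022). These 2 genes moved in opposite directions in the same 4 libraries, and the call of Hist1h3h was lost without day 5 library a (adjusted p = 0.18) or day 7 library b (0.14). The replication list fell in both groups, with 40 and 37 of 47 genes lower. Each library left out reduced these counts by more than 1.5 times, to 0 to 3 in the DN3 controls, with 0 without day 7 library c, and to 1 to 5 in the DN3 floxed cultures, with 1 without day 7 library b.

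In DN1 controls the sum was level between days 5 and 7, at a ratio of 0.99, while the replication sum stood at 0.74 with 22 of 47 genes lower. Members called were 5, all higher, against 6.45% of all genes called higher and 13.1% in either direction, so this count is near the share over all genes. They were Hist1h1c, Hist1h2bc, Hist3h2a, Hist2h2be and Hist3h2ba. Hist3h2ba rose from 2.92 and 4.32 to 8.17 and 8.68 CPM (1.20 ± 0.34, SE, adjusted p = 0.023, edgeR), without overlap. Leaving out a library gave 2 (day 5 library d) or 3 calls (each of the other 3), and Hist3h2ba was not called without any 1 of them (adjusted p = 0.061 to 0.20). In DN1 floxed cultures the sum stood at a ratio of 1.27, with day 7 library a inside the range of the day 5 libraries. In these cultures 22 members rose and 0 fell, against 12% of all genes called higher and 21.5% in either direction, although 28 of 47 replication genes fell. Of the 11 H3 genes, 10 were called. Hist1h3h rose from 1.71 and 2.58 to 5.14 and 10.1 CPM (1.82 ± 0.41, SE, adjusted p = 0.0043). Without day 7 library b 4 members were called and Hist1h3h was at 1.26 (adjusted p = 0.082), without day 7 library a 35 were, without day 5 library a 5, with Hist1h3h at 1.54 (adjusted p = 0.066), and without day 5 library b 8. DESeq2 called 14.

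The histone sum was set beside replication gene level over all 24 cultures as a description. Pearson's r between the log2 histone sum and the mean log2(CPM + 1) of the 47 replication genes was 0.70 and Spearman's rho 0.66. Without the 2 libraries farthest from the median, DN3 control day 5 c and d, r was 0.54 and rho 0.56. Within days, r was 0.94 on day 4, 0.73 on day 5 and 0.68 on day 7, each over 8 libraries, and rho was 0.69, 0.36 and 0.90. Within precursors, r was 0.51 in DN1 and 0.82 in DN3 over 12 libraries each, and rho 0.69 and 0.66. By class, r was 0.72 for H2A, 0.52 for H4, 0.48 for H1, 0.09 for H2B and 0.06 for H3. These pooled values covered unlike ones. For H3, r was 0.96 on day 4, 0.47 on day 5 and -0.38 on day 7, and for H2B it was -0.72 in DN1 and 0.42 in DN3. Over the members with under 10% of their words in another gene, a split chosen after the values were seen, r was 0.35 in all, -0.79 in DN1 and 0.70 in DN3. The histone genes outside the clusters gave 0.92. Libraries of a group share precursor, day and genotype, so these points are not independent.

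**Figure D4:**
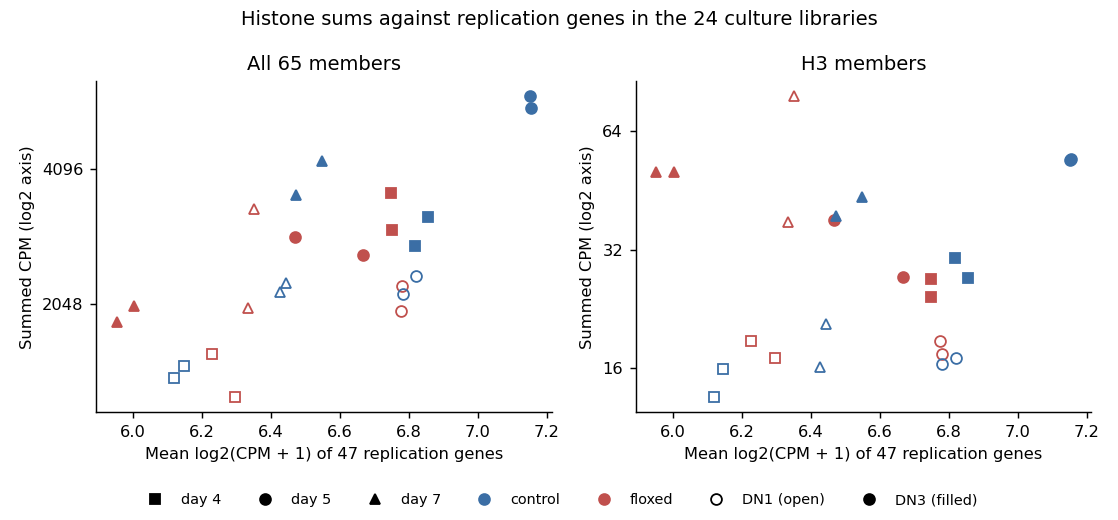
Summed histone CPM (log2 axis) against the mean log2(CPM + 1) of 47 replication genes in the 24 culture libraries, for all 65 members (left) and the H3 members (right); colour marks genotype, shape the day, and open points are DN1 and filled points DN3. Pearson's r is 0.70 on the left and 0.06 on the right.

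The genes whose log2 level over the 24 cultures was most like the histone sum, out of 12228, by Spearman's rho were Exosc10 (rho = 0.925), Kif22 (0.920), Hjurp (0.917), Asxl1 (0.912) and Sfswap (0.904). The first replication gene in that order was Pold1, a subunit of DNA polymerase delta, at rank 43 with rho = 0.862.

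In thymic ILC2, most histone cluster mRNA was at or near 0, and H2A was no longer the leading class. The sum was 96.2 and 114 CPM in thymic ILC2 libraries 1 and 3, whereas DN1 and DN3 floxed day 7 cultures were 24.94 and 18.10 times as high in mean. H2A genes made up 8.36% to 11.2% of the sum, against 83.0% to 91.1% in every culture. H4 genes led in library 1, with 42.5 CPM against 25.1 for H2B, and H2B genes led in library 3, with 46.0 CPM against 34.9 for H4. Over both libraries the 65 members had 657 counts in all, with 21 members at 0 counts and another 21 at 1 to 3. Against DN1 floxed day 7, 49 of 60 members tested were lower and 1 higher, with 40.1% of all 16391 genes lower, 33.6% higher and 73.7% called in either direction. Against DN3 floxed day 7, 47 were lower and 2 higher, with 38.8%, 33% and 71.8%. With members at 0 set to the limit that 3 counts over both libraries allow, the median log2 difference was -3.15 and -3.07, while the median over all genes was -0.26 and -0.20.

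Hist1h2ao and Hist1h2ap had 0 counts in both thymic ILC2 libraries. Taking 3 counts over both libraries as the limit, Hist1h2ao was at least 1192-fold lower than in DN1 floxed and at least 821-fold lower than in DN3 floxed day 7 cultures. Hist1h2ap was at least 1055-fold and 927-fold lower. The 12 Hist1h2a genes together had 14 counts against 33242 in the DN1 floxed day 7 libraries, which is 967-fold lower in CPM, and 677-fold lower than in DN3. Hist3h2ba and Hist1h3h were at 0 counts as well. Hist1h1c was at 3.22 and 4.12 CPM against 46.0 and 48.9 in DN1 floxed day 7 cultures under the same scaling (-3.68 ± 0.23, SE, adjusted p = 2.6e-12, edgeR). The ILC2 libraries lay far below the cultures for each of these genes.

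A few members were at or above the culture level in thymic ILC2. Hist1h2be was at 10.6 and 7.61 CPM in ILC2 and at 3.75 and 4.62 CPM in DN1 floxed day 7 cultures (1.12 ± 0.39, SE, adjusted p = 0.014, edgeR), and at 3.90 and 2.61 CPM in DN3 floxed day 7 cultures (1.49 ± 0.41, SE, adjusted p = 0.0025). Both ILC2 libraries exceeded all 4 cultures. Scaled by library totals, these differences of Hist1h2be were 0.37 (adjusted p = 0.39) and 0.76 (adjusted p = 0.096). The first was also not called without DN1 floxed library a (adjusted p = 0.091), without thymic ILC2 library 1 (0.12) or with no filter on low counts (0.063), and the second not without DN3 floxed library b (0.058). Hist1h4d was at 25.4 and 23.2 CPM against 10.5 and 23.6 CPM in DN1 floxed cultures, which overlap. Hist2h2be was at 3.54 and 21.6 CPM in ILC2, apart by more than the cultures at 13.2 and 14.5 CPM. Hist1h4d with 152, Hist2h2be with 79 and Hist1h2be with 57 counts led the 657 counts. Leaving out Hist1h4d brought the mean ILC2 sum from 105 to 80.6 CPM.

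**Figure D5:**
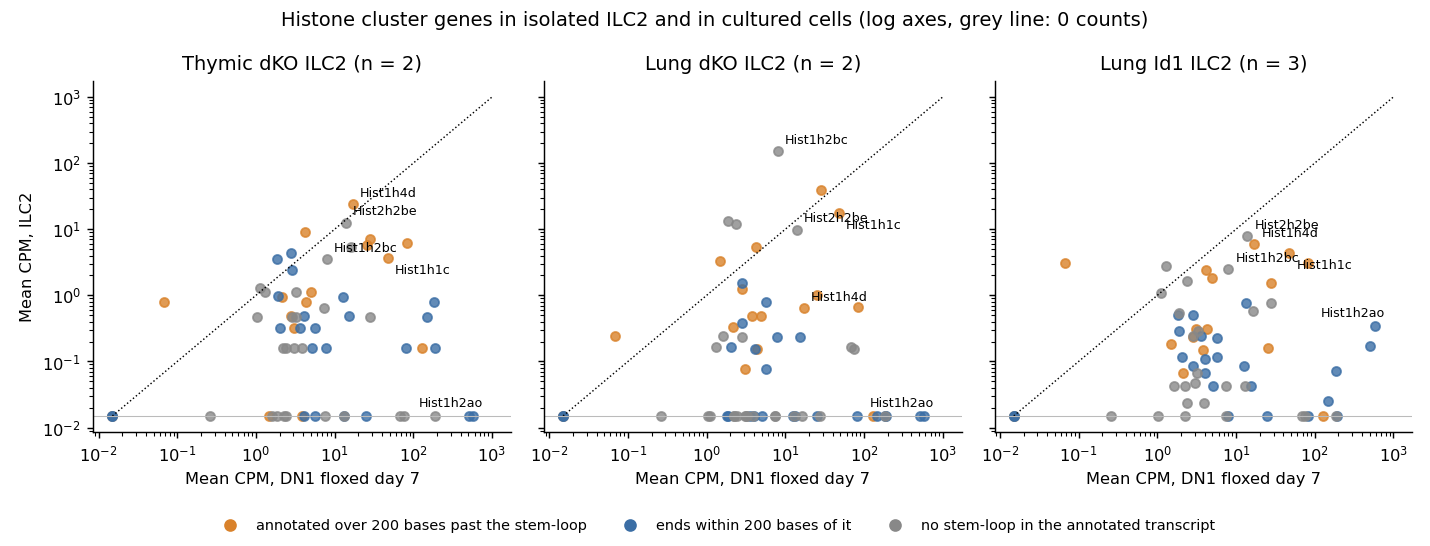
Mean CPM of each histone cluster gene in thymic ILC2, lung ILC2 dKO and lung ILC2 Id1 (panels, vertical log axis) against DN1 floxed day 7 cultures (horizontal log axis); the dotted diagonal marks equal values, points on the grey line have 0 counts and colours mark where the annotated transcript ends relative to the stem-loop. The lung panels set 2 separately scaled tables side by side. In thymic ILC2, Hist1h2ao lies on the grey line and Hist1h4d near the diagonal.

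The histone counts of ILC2 and cultures were spread differently over members with short and long annotated ends. The 24 members ending within 200 bases of the stem-loop (median longest transcript 514 bases) held 70.8% of histone counts in the cultures, but 15.2% in thymic ILC2, 1.88% in lung ILC2 dKO and 7.57% in lung ILC2 Id1. The 16 that run further (median 1595 bases) held 12.8% in the cultures and 57.8%, 24.4% and 52.7% in the 3 ILC2 groups. The 25 without a match (median 411 bases) held 16.4% against 26.9%, 73.7% and 39.8%. A few genes weighed heavily in these shares. Hist1h2bc gave 1354 of the 1687 counts of the members without a match in lung ILC2 dKO. Hist1h2ao and Hist1h2ap, which both end within 200 bases, held 46.5% of the histone CPM sum in the cultures. Single members went both ways. Hist1h4d and Hist1h2be, annotated 770 and 1861 bases past the stem-loop, were among the 3 members with the most counts in thymic ILC2. Hist2h2be, also among them, had no match, and Hist1h2ap, annotated 3 bases past the stem-loop, was at 0. In contrast, Hist1h2ac and Hist4h4, annotated 2010 and 2445 bases past it, had 1 and 0 counts. Hist1h4f and Hist1h2bb, annotated 33 and 23 bases past it, had 27 and 22, those of Hist1h2bb all in library 3. These shares follow the annotation and were not tested.

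Thymic ILC2 libraries differed from the cultures in other ways that moved with the histone genes. Of 10 RNAs without a poly(A) tail that were tested, 9 were lower than in DN1 floxed day 7 cultures and 0 higher, and Rn7s1 was at 0 to 0.322 CPM in thymic ILC2, 0.465 to 10.8 in lung ILC2 and 16.3 to 217 in the cultures. Rn7sk was not low in the same way, at 34.4 and 10.8 CPM in thymic ILC2 and 9.45 to 65.9 in lung ILC2, against 8.12 and 20.6 CPM in DN1 floxed day 7 cultures. Mitochondrial ribosomal RNA took 52.0% to 54.8% of counts in thymic ILC2, 12.1% to 46.5% in lung ILC2 and 0.702% to 1.80% in the cultures. Of the 11 histone genes outside the clusters, 10 were lower against DN1 floxed day 7, with H2afz at -2.97 and H3f3b at -3.16. Genes of the cell cycle were present. The 17 mitosis genes summed to 13134 and 8619 CPM, against 2684 and 3036 CPM in DN1 floxed day 7 cultures under the same scaling. Of the 17, Mki67 was at 4.79 and Top2a at 1.05 in log2 difference. How many of the 17 were called higher or lower is not given here. The sum can rest on a few genes, so it does not describe each of them. The replication list gave 8 higher and 30 lower calls, with Pcna at 0.27 (adjusted p = 0.091, edgeR) and Slbp at -2.18. Xist was at 0.322 and 0.317 CPM in thymic ILC2 and at 1303 to 1888 CPM in the floxed day 7 cultures, while Y-linked genes summed to 543 and 553 CPM and to 0.509 to 2.58 CPM. Sex, the source of the cells, their culture and how the libraries were made cannot be told apart between these groups.

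Lung ILC2 held 206 and 322 CPM of histone cluster mRNA in dKO libraries 1 and 3 and 25.5, 80.4 and 32.1 CPM in Id1 libraries 1, 2 and 3. Each dKO library exceeded each Id1 library. A separate scaling was used, as this table was deposited apart from the other. Only 10 members passed the filter on low counts, and 3 of them were higher and 0 lower in dKO, against 14.4% of 19371 genes called higher and 18.1% in either direction. The median log2 difference over all genes was 0.16. Hist1h2bc accounted for most of the difference in the sum, at 127 and 180 CPM in dKO and 1.34, 3.72 and 2.34 CPM in Id1 libraries (5.98 ± 0.49, SE, adjusted p = 0.00099, edgeR). The groups were far apart. In the same unit but another scaling, it was at 3.22 and 3.81 CPM in thymic ILC2 of the same genotype. Hist3h2a was at 6.05 and 72.6 against 1.41, 1.67 and 1.59 CPM (4.64 ± 0.90, SE, adjusted p = 0.022), so dKO library 3 held far more than library 1, and Trim17 overlaps it on the same strand. Hist1h2br was at 10.2 and 16.1 against 0.141, 0.899 and 0.605 CPM (4.58 ± 1.09, SE, adjusted p = 0.028), again without overlap. The number of calls was 1 without dKO library 3, 2 without Id1 library 1 or 3, and 4 without dKO library 1 or Id1 library 2, and DESeq2 called 5.

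Other members were low in every lung library. Hist1h2ao and Hist1h2ap were at 0 in 4 of the 5 libraries and at 1.03 and 0.514 CPM in Id1 library 2. Over each group, 34 members had 0 counts in dKO and 15 in Id1, of 2288 and 1413 histone counts in all. Hist1h2bc with 1354 counts led in dKO, and Hist2h2be with 258 led in Id1, where it stood at 6.54, 10.4 and 6.35 CPM against 13.6 and 6.02 CPM in dKO. Its groups overlapped, and it was not called (0.35 ± 0.75, SE, adjusted p = 0.79). Hist1h1c was at 24.5 and 10.7 against 2.67, 5.91 and 4.54 CPM, higher in both dKO libraries and not called (2.02 ± 0.73, SE, adjusted p = 0.082). Hist1h4d was at 0.931 and 0.335 against 1.69, 14.4 and 1.66 CPM, lower in dKO and not called, with Id1 library 2 far above the others. Of the 45 replication genes tested, 1 was higher and 0 lower, and their sum was 467 to 590 CPM over the 5 lung libraries, a range that covers both groups. Markers of other cells were low but differed between the lung groups. The stroma markers, which include collagen genes, summed to 53.8 and 95.7 CPM in dKO and 2.53, 17.6 and 3.48 CPM in Id1, without overlap. The B cell markers summed to 24.5 and 11.7 CPM in dKO and 0.422 to 3.60 in Id1, and the lung epithelial markers to 44.4 and 28.1 against 1.54 to 5.14 CPM, without overlap, while the myeloid markers at 16.3 and 14.7 CPM lay within the 3.18 to 37.1 CPM of Id1. Their part in the histone values was not tested.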

How the data were processed

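RNA-seq libraries of 24 cultures and 7 samples of freshly isolated ILC2 were analysed. The raw count tables, with whole numbers of reads per Ensembl gene, were deposited by the authors as 1 table for the thymus and cultures and 1 for the lung. The genome build was mm10 and DESeq2 was used, per the submitters' processing notes, with no version; the aligner, the counting of reads that match several genes and the use of strand were not stated by the labels or notes. The total count of a culture was at least 5908459. The lung table and the thymus table were never tested against each other.

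Identifiers were matched to GENCODE M21 (GRCm38), which named 48578 of 48881 rows. Counts were tested with edgeR 4.0.16 in R 4.3.3 (quasi-likelihood test, TMM scaling, filterByExpr with a minimum count of 10), with 1 mean per group, and Benjamini-Hochberg adjustment over all genes tested. A call is an adjusted p under 0.05, two-sided. The fits used 24 cultures (15172 genes, 12 residual degrees of freedom), 26 libraries with thymic ILC2 (16391 genes, 13) and 5 lung libraries (19371 genes, 3). Groups of 2 have no spread of their own, so the spread is shared. The fitting script was tested on simulated data. Alternatives were RLE and library-total scaling, no filter, DESeq2 1.42.0, a block for the replicate letter and leaving out each replicate.

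Values in every library are given for the 2 members of each class with the highest mean CPM, Hist4h4, and the called member with the largest change in each direction of a comparison at 5 CPM or more; others named for a count or an overlap were chosen after their values were seen. The members and gene lists were chosen with earlier results of these data known.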

Additional observations from a re-analysis of the deposited data

Results flagged for a closer look

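Of the differences between contrasts, 3 were tested directly by an interaction term in edgeR's quasi-likelihood test. The genotype difference on day 7 was not the same in DN1 and DN3 cultures for 22 histone cluster genes, all higher in DN1 relative to DN3. Of all genes, 3.81% were called higher in that contrast and 7.79% in either direction. The genotype difference changed between days 5 and 7 for 1 of 60 members in DN1 cultures, Hist1h3c, which was higher on day 7 relative to day 5. Of all genes, 0.87% were called higher and 1.63% in either direction, so this count is near the share over all genes. Without floxed day 7 library b the log2 value of Hist1h3c was 1.70. In DN3 cultures the genotype difference changed for 1 of 60 members, Hist3h2ba, which was lower on day 7 relative to day 5. Of all genes, 3.54% were called lower and 7.2% in either direction, which are larger shares than 1 of 60. That call depended on single libraries, as given above.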

How the results depend on the processing

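No named call changed direction under any setting that was run. Counts were compared by size, which cannot show a change of direction. In DN3 floxed cultures, day 5 against day 4, 1 member rose and 1 fell, but with no filter 0 rose and 7 fell. The median log2 difference of the lung members was 1.58 over 10 members, and -1.56 over 53 with no filter. Leaving out dKO library 1 gave -0.79 and leaving out dKO library 3 gave -0.97. Of named calls, 511 of 549 held under other settings and 38 fell below the threshold; with a replicate left out, 359 of 521 held and 162 did not. Of the counts of members called, 89 of 97 values under other settings were within 1.5 times the main count, and the other 8 follow. For DN1 floxed cultures, day 7 against day 5, DESeq2 called 14 members, against 22. For DN3 controls, day 7 against day 5, 14 were called with no filter on low counts, against 9. For DN3 floxed cultures, day 5 against day 4, no filter gave 7, DESeq2 1 and the replicate block 1, against 2. The genotype difference of day 7 minus day 5 gave 6 with no filter in DN1 and 3 in DN3, against 1 each. DESeq2 called 5 in the lung, against 3. The cause of these was not tested, beyond the larger number of genes tested with no filter.

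With 1 library left out, the counts ranged as follows. Floxed against control gave 0 to 0 on DN1 days 4 and 5 and DN3 day 4, 4 to 35 on DN1 day 7, 10 to 14 on DN3 day 5 and 14 to 19 on DN3 day 7. Day 5 against day 4 gave 8 to 16 in DN1 controls, 6 to 17 in DN1 floxed, 7 to 13 in DN3 controls and 1 to 2 in DN3 floxed cultures. Day 7 against day 5 gave 2 to 3, 4 to 35, 0 to 3 and 1 to 5 in the same order. DN1 against DN3 controls gave 10 to 22, the difference of genotype differences 10 to 27, and day 7 minus day 5 0 to 18 in DN1 and 0 to 1 in DN3. Thymic ILC2 gave 45 to 48 against DN1 and 42 to 45 against DN3, and the lung 1 to 4. A library alone in its group is assumed to vary like the other groups.

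The median histone sum of the cultures was 2320 CPM, 1723 without Hist1h2ap and 92.0 over the members with under 10% of words shared, a set chosen after seeing the data. In thymic ILC2 it was 105 CPM, 63.8 with library totals, 125 with RLE scaling, 80.6 without Hist1h4d and 24 over that set. The correlation of the histone sum with replication genes was 0.699, 0.940 on day 4, 0.535 without the 2 farthest libraries and 0.354 over that set.

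No paired analysis was possible because floxed and control cultures share no replicate letter, for the comparisons between genotypes within a day. For the comparisons across days, libraries with the same letter were correlated in their deviations at -0.118 to 0.135 over 12 pairs of days, and in DN3 floxed cultures alone at 0.118, 0.125 and 0.135. Between DN1 and DN3 of a day the range was -0.237 to 0.111, and the lung pair was at -0.00910. The letters were therefore not taken to pair the samples, except as a hint in DN3 floxed cultures. The replicate block moved the DN3 floxed count, day 5 against day 4, to 1 and left the others within 1.5 times, for example 15 for DN1 floxed and 8 for DN3 floxed cultures, day 7 against day 5.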
